A study of Ovis aries with 19 samples.

Results

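The nuclear pore and nuclear transport genes described here are 45 of the 28524 gene identifiers measured in liver and muscle of female sheep. They were chosen by name, as the numbered NUP, IPO, KPNA and TNPO genes, KPNB1, the numbered XPO genes and XPOT, with a mean normalized read count of at least 10 in liver or in muscle. The pattern matched 46 names. KPNA7 lay just outside the level rule, with its larger mean of 8.56 in liver. NUP62CL was the member nearest to the cut of 10, with 24.6 in liver and 1.84 in muscle, and KPNA5 came next, with 94.8 in liver. The 45 genes comprised 22 nucleoporins and 23 transport receptors, and all 45 symbols were found in the RefSeq gene table of the sheep.

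The study asked how testosterone excess before birth affects the liver and muscle transcriptomes of female sheep (Ovis aries). RNA was sequenced from 5 muscles of treated sheep and 5 muscles of control sheep, and from 5 livers of treated sheep and 4 livers of control sheep. Both tissues came from the same animals, which are named here by their sheep numbers. The treated sheep were 48, 63, 185, 233 and 255, and the controls were 98, 131, 132, 179 and 201, with no liver of control 132 analysed here. The treated sheep are labelled prenatal T-treatment and the others control, and the sources used here do not give the dose, the days of exposure, the breed, the age at sampling or the name of the muscle. The libraries held 8455563 to 14331578 recovered reads in muscle and 10236610 to 16046301 in liver. The tissue labels held: the summed hepatocyte markers reached at most 28.1 in any muscle library and were at least 159244 in every liver library, while the summed skeletal muscle markers were at least 671814 in muscle and at most 55.6 in liver.

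The nuclear pore complex is the channel through the nuclear envelope. It is built from an outer ring, an inner ring and a membrane anchor, with filaments on the cytoplasmic face, a basket on the nuclear face, and a central channel filled with flexible repeat-bearing nucleoporins that let transport receptors through. Importin alpha adaptors bind a classical nuclear localization signal and dock on importin beta, encoded by KPNB1, whereas other importins, the transportins and the exportins bind their cargo directly. The small GTPase Ran sets the direction, since its GTP form in the nucleus releases import cargo and loads export cargo. In skeletal muscle, where one fibre holds many nuclei, and in liver, this machinery carries transcription factors, ribosomal subunits and RNA between compartments.

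All values are normalized read counts scaled within a tissue, and a treatment effect is the log2 fold change of treated over control on log2(value + 1), with its standard error. Levels of different genes are not compared, because the values are not per length. Bulk RNA cannot separate fewer cells of a type from less RNA per cell, and this holds for every difference given here.

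In muscle, most pore and transport genes lay slightly lower in treated than in control sheep, but no member passed the adjusted test. The median log2 fold change over the 44 members tested was -0.14, beside -0.013 over all 12966 genes, and the members ran from -0.68 for NUP58 to 0.42 for NUP210. Of the 44, 32 were below 0 (72.7%), where 51.6% of all genes were. By limma with Benjamini-Hochberg adjustment over all genes, 0 of 44 members were called at 0.05, beside 1 gene of all those tested (0.00771%). At an unadjusted p under 0.05 there were 9 members (20.5%), beside 14.4% of all genes. These comprised 8 lower members (18.2%), beside 7.00% of all genes, and 1 higher member (2.27%), beside 7.37%. Ranges of the treated and control muscles did not overlap for 3 lower members (6.82%, beside 1.53% of all genes) and for 1 higher member (2.27%, beside 1.76%). edgeR's quasi-likelihood test on the recovered reads also called 0 members after adjustment, whereas DESeq2 called 2, both lower, NUP58 and KPNA4, beside 0.812% of all genes lower and 1.40% higher. The count at an unadjusted p under 0.05 was 14 without treated sheep 255 (31.8%, beside 17.2% of all genes). It was 5 when both tissues shared 1 estimate of the spread (11.4%, beside 6.67% of all genes). Without control sheep 201 the share of members at that p was 13.6%, close to the 12.5% of all genes.

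**Figure D1:**
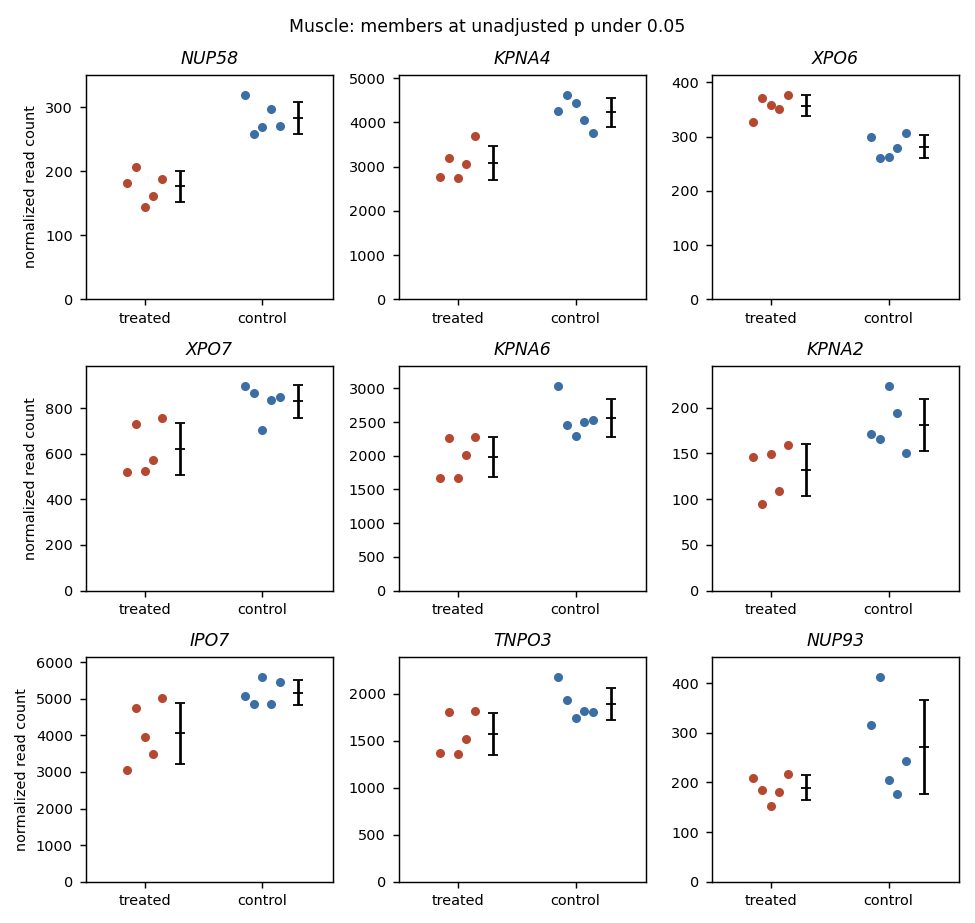
Normalized read counts in muscle (vertical axes, linear from 0) of the 9 members at an unadjusted p under 0.05; each point is 1 sheep, treated left and control right, and the bar beside each group is the mean ± SD (n = 5 each). The ranges are apart for NUP58, KPNA4, KPNA6 and XPO6, and XPO6 is the 1 gene of the 9 that is higher in treated muscle.

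The central channel held the member with the smallest p. NUP58, which forms the channel's core together with NUP54 and NUP62, had 182, 207, 145, 162 and 188 in muscles of treated sheep 48, 63, 185, 233 and 255, against 319.6, 259, 269.5, 298 and 271 in muscles of control sheep 98, 131, 132, 179 and 201. Every treated muscle lay below every control muscle. The means were 177 ± 24.2 in treated muscle and 283 ± 25.0 in control muscle (SD, n = 5 each), a log2 fold change of -0.68 ± 0.13 (limma, adjusted p = 0.104). Across the alternative settings tried, its adjusted p ran from 0.00131 with DESeq2 to 0.703, and its log2 fold change from -0.74 to -0.62.

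The partners of NUP58 in the channel were also below 0, by less. NUP54 had 163, 204, 219, 200.2 and 254 in treated muscles and 222, 240.3, 284, 252 and 258 in control muscles, with overlapping ranges and a log2 fold change of -0.28 ± 0.14 (limma, adjusted p = 0.372). NUP62 averaged 434 ± 78.1 in treated muscle and 474 ± 58.5 in control muscle (SD, n = 5 each). NUP98, made as a precursor that is cleaved into a channel protein and an outer ring protein, averaged 2342 ± 598 in treated muscle and 2867 ± 1190.2 in control muscle (SD, n = 5 each), where control sheep 201 alone had 4853. All 4 channel genes were below 0, with a median of -0.26.

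The scaffold genes were also mostly below 0. All 5 inner ring genes were below 0 in muscle, with a median of -0.22. NUP93, which holds the inner ring together, had 209, 185, 153, 181 and 217 in treated muscles and 316, 411, 206, 178 and 243 in control muscles. The groups overlapped, the control spread being set by sheep 98 and 131, and the log2 fold change was -0.46 ± 0.21 (limma, adjusted p = 0.338). The inner ring gene NUP35 averaged 179 ± 43.8 in treated muscle and 222 ± 25.0 in control muscle (SD, n = 5 each). In the outer ring, or Y complex, 5 of 6 genes were below 0, yet their median was only -0.078, and NUP107 and NUP133 averaged 335 ± 59.2 and 101 ± 15.4 in treated muscle, against 340.2 ± 52.1 and 96.9 ± 9.46 in control muscle (SD, n = 5 each).

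On the 2 faces of the pore the genes did not share a direction. NUP88, on the cytoplasmic side, had 591, 585, 393, 549 and 563 in treated muscles and 501, 451, 419, 479 and 443 in control muscles. Of the treated muscles, 4 lay above all controls and that of sheep 185 lay below them, with a log2 fold change of 0.21 ± 0.13 (limma, adjusted p = 0.486). Its partner NUP214 averaged 509 ± 60.0 in treated muscle and 556 ± 75.1 in control muscle (SD, n = 5 each). The basket genes NUP153 and NUP50 averaged 688 ± 136 and 485 ± 75.0 in treated muscle, against 767 ± 126 and 548 ± 83.3 in control muscle (SD, n = 5 each). The membrane glycoprotein NUP210, known from mouse muscle cells to take part in differentiation, had 186, 473, 422, 483 and 118 in treated muscles and 286, 226, 149, 243 and 212 in control muscles. Treated sheep 63, 185 and 233 lay above all controls and treated sheep 255 below them, so the log2 fold change was 0.42 ± 0.35 (limma, adjusted p = 0.617).

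Among the importin alpha adaptors, 5 of 6 were below 0 in muscle, with a median of -0.30, and 3 of them were among the 9. KPNA4 had 2759.9, 3193, 2745, 3062 and 3688 in muscles of treated sheep 48, 63, 185, 233 and 255, against 4262, 4618, 4428, 4061 and 3756 in muscles of control sheep 98, 131, 132, 179 and 201. The groups did not overlap, although treated sheep 255 came close to control sheep 201. The means were 3089.6 ± 386 in treated muscle and 4225 ± 333 in control muscle (SD, n = 5 each), a log2 fold change of -0.46 ± 0.12 (limma, adjusted p = 0.167, 0.0177 to 0.722 over the alternatives).

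KPNA6 had 1674, 2261, 1676, 2014 and 2284 in treated muscles and 3032, 2460.5, 2287, 2502 and 2533 in control muscles. The groups were apart by a narrow margin, between treated sheep 255 and control sheep 132, and the log2 fold change was -0.38 ± 0.13 (limma, adjusted p = 0.237). KPNA2, an adaptor that is abundant in dividing cells, had 146, 94.7, 149, 109 and 159 in treated muscles and 171, 166, 223, 194 and 150.4 in control muscles. Only control sheep 201 lay within the treated range, and the log2 fold change was -0.47 ± 0.17 (limma, adjusted p = 0.262). KPNA1 and KPNA3 had log2 fold changes of -0.23 ± 0.17 and -0.13 ± 0.15, and KPNA5 had 0.13 ± 0.28.

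Of the 11 import receptors, 7 were below 0 in muscle, with a median of -0.18. IPO7, an importer of ribosomal proteins and histone, had 3063, 4744, 3954, 3483 and 5025 in treated muscles and 5081, 4844, 5581, 4859.8 and 5451 in control muscles. Treated sheep 48, 185 and 233 lay below all controls with room to spare, treated sheep 63 lay just below them and treated sheep 255 among them. The log2 fold change of IPO7 was -0.37 ± 0.15 (limma, adjusted p = 0.285). TNPO3, the importer of serine- and arginine-rich splicing factors, had 1368, 1809.6, 1358, 1515 and 1813 in treated muscles and 2173, 1929, 1746, 1813 and 1807 in control muscles, with a log2 fold change of -0.28 ± 0.12 (limma, adjusted p = 0.337). Treated sheep 63 and 255 lay within the control range and the other treated muscles lay below it.

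KPNB1, the importin beta on which every importin alpha depends, had 2141, 2954, 2102, 2038 and 2909.7 in treated muscles and 3152, 2498, 3087, 2880.3 and 3173 in control muscles. Treated sheep 48, 185 and 233 were again the low ones, and the log2 fold change was -0.30 ± 0.14 (limma, adjusted p = 0.353). IPO5, another ribosomal protein importer, averaged 3706 ± 858 in treated muscle and 4557 ± 327 in control muscle (SD, n = 5 each). TNPO1, which imports RNA-binding proteins, was above 0, with 1111 ± 208 in treated muscle and 1011 ± 116 in control muscle (SD, n = 5 each), as were TNPO2, IPO9 and IPO4.

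The exportins divided evenly, 3 of 6 below 0, and held both a lower and a higher member of the 9. XPO6, which exports actin bound to profilin, had 328, 371, 359, 351 and 377 in treated muscles and 299.7, 259.8, 262, 279.8 and 306 in control muscles. Every treated muscle lay above every control muscle. The means were 357 ± 19.2 in treated muscle and 281 ± 21.2 in control muscle (SD, n = 5 each), a log2 fold change of 0.34 ± 0.11 (limma, adjusted p = 0.197, 0.0651 to 0.899 over the alternatives). XPO6 also had the smallest residual spread of the 44 members in muscle, an SD of 0.095 on the log2 scale.

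XPO7, an exportin with broad cargo, had 519.5, 730.0, 526, 575 and 756 in treated muscles and 897, 866, 705, 835 and 848 in control muscles. Treated sheep 63 and 255 overlapped control sheep 132, and the log2 fold change was -0.43 ± 0.14 (limma, adjusted p = 0.197). XPO1, the general exportin of proteins with a leucine-rich export signal, had 1285, 1331, 2072, 1297 and 1539 in treated muscles and 943, 1226, 1975, 1265 and 1400.0 in control muscles. One library in each group, of treated sheep 185 and of control sheep 132, stood above the rest, and the log2 fold change was 0.16 ± 0.19 (limma, adjusted p = 0.737). XPOT, the exporter of tRNA, XPO4 and XPO5, the exporter of microRNA precursors, had log2 fold changes of -0.05 ± 0.13, 0.02 ± 0.18 and -0.23 ± 0.21.

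The low values in muscle gathered in a few libraries. The muscle of treated sheep 185 was the lowest of the 10 libraries for 15 of the 44 members (34.1%), where it was lowest for 12.3% of all genes, and that of treated sheep 48 for 10 members (22.7%, against 12.4% of all genes). Without treated sheep 185 the median log2 fold change of the members was -0.10. In that fit 8 members stood at an unadjusted p under 0.05 (18.2%, beside 11.4% of all genes). High values gathered in control muscles as well. The muscle of control sheep 98 was the highest of the 10 for 9 members (20.5%, against 10.0% of all genes). That of control sheep 201 was the highest for 8 (18.2%, against 9.12%). Without control sheep 201 the median of the members was -0.11, and 13.6% of them stood at that p, beside 12.5% of all genes. Marker genes of other cell types were summed in the same libraries. The 2 satellite cell markers PAX7 and MYF5 summed to 45.7 to 91.3 in treated muscles and 15.4 to 43.7 in control muscles, and both were higher at an unadjusted p under 0.05 (limma, smallest adjusted p = 0.151). The 4 adipocyte markers summed to 54.2 to 240.6 in treated muscles and 113 to 579.7 in control muscles, with 2 of the 3 tested lower at an unadjusted p under 0.05. The 4 T cell markers summed to 101.8 to 183 in treated muscles and 76.6 to 110.4 in control muscles, with 1 of 4 higher at that p, and the 5 proliferation markers to 13.2 to 84.3 in treated muscles and 22.7 to 27.8 in control muscles, with 1 of the 5, CCNB1, at 0 in every control muscle. The 4 endothelial markers summed to 1879 to 3460.1 in treated muscles and 2534 to 3916 in control muscles, and all 4 were below 0, with a median of -0.19 and none at an unadjusted p under 0.05. The 3 macrophage markers summed to 140.8 to 379 in treated muscles and 155.6 to 246 in control muscles, and the 5 fibroblast markers to 3095 to 9659 in treated muscles and 3512 to 6336 in control muscles. The 5 skeletal muscle markers summed to 671814 to 1.36e+06 in treated muscles and 1.28e+06 to 1.53e+06 in control muscles, and all 5 were below 0, with a median of -0.36, none at an unadjusted p under 0.05. The part of these cells in the members' values was not tested.

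**Figure D2:**
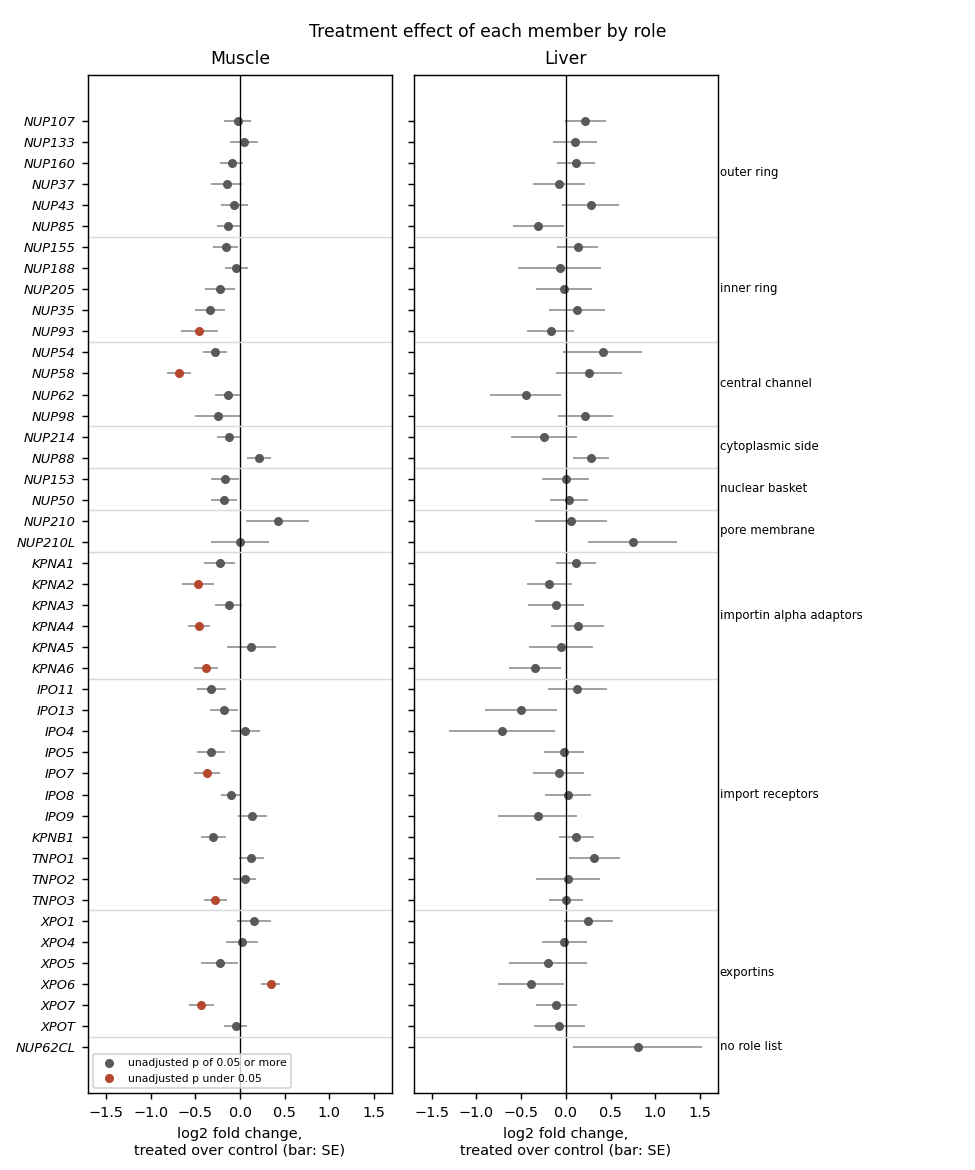
Log2 fold change of treated over control for each member in muscle (left) and liver (right), grouped by role; points are limma estimates on log2(value + 1), bars are ± 1 SE, and red points have an unadjusted p under 0.05. The muscle points lie mostly left of 0, with medians of -0.26 for the central channel and -0.30 for the importin alpha adaptors, while the liver points lie on both sides with longer bars; NUP62CL was not tested in muscle.

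Genes that work with the pore but lie outside the naming rule were read the same way in muscle. Of 10 other pore proteins, 9 were below 0 (51.6% of all genes were), with a median of -0.15. Of the 10, 1 was lower at an unadjusted p under 0.05 (7.00% of all genes were). This was NDC1, a membrane anchor of the pore, with 133 ± 24.7 in treated muscle and 171 ± 12.0 in control muscle (SD, n = 5 each), a log2 fold change of -0.37 (limma, adjusted p = 0.276). Of 15 genes of the Ran cycle and other transport factors, 14 were below 0, but the median was only -0.076 and none had an unadjusted p under 0.05. CSE1L, which returns importin alpha to the cytoplasm, averaged 900.3 in treated muscle and 1066 in control muscle. Of 18 mRNA export factors, which use a separate receptor, 11 were above 0 (48.4% of all genes were) and 3 were higher at an unadjusted p under 0.05 (7.37% of all genes), with a median of 0.025; their difference from the members was not tested. PCID2, a subunit of the export complex TREX-2, ranged from 514 to 726 in treated muscles and from 369 to 618 in control muscles, a log2 fold change of 0.40 (limma, adjusted p = 0.273). THOC1, of the THO complex, averaged 431 in treated muscle and 332 in control muscle (limma, adjusted p = 0.315), and the RNA-binding export factor ZC3H11A, named after its values were seen, averaged 4105 in treated muscle and 3335 in control muscle. Of 16 genes of the nuclear lamina and envelope, 11 were above 0 and none had an unadjusted p under 0.05. No gene of these 4 lists was called after adjustment.

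In liver the same genes showed no shared direction. Of the 45 members, 23 were below 0 and 22 above, beside 49.6% and 50.4% of all genes, and the median log2 fold change was -0.0014, beside 0.0032 over all 13640 genes. By limma, 0 of 45 members were called after adjustment (0.00733% of all genes) and 0 at an unadjusted p under 0.05, where 3.99% of all genes were. edgeR called 0 members after adjustment and DESeq2 called 0, with 1 at its unadjusted p under 0.05 (2.22%, beside 5.04% of all genes). No member's treated and control ranges were apart, against 0.858% of all genes apart and higher and 0.682% apart and lower. The count at an unadjusted p under 0.05 was 3 without control sheep 179 (6.67%, beside 8.47% of all genes). It was 2 without treated sheep 185 (4.44%, beside 6.09%) and 4 with libraries weighted by their spread (8.89%, beside 11.1%). The median of the members was 0.11 without control sheep 179. The SEs in liver were wide: the median residual SD of the members, in log2 units, was 0.45 (0.52 over all genes) for liver, and for muscle it was 0.23 (0.31 over all genes).

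The member with the smallest p in liver was NUP210L, a paralogue of the membrane nucleoporin NUP210. It had 199, 151, 51.5, 70.6 and 378 in livers of treated sheep 48, 63, 185, 233 and 255, against 60.8, 74.6, 88.7 and 95.7 in livers of control sheep 98, 131, 179 and 201. Treated sheep 48, 63 and 255 lay above all controls and the other treated livers within or below them. The log2 fold change was 0.75 ± 0.50 (limma, adjusted p = 0.999). NUP88 averaged 532 ± 54.5 in treated liver (SD, n = 5) and 438 ± 60.5 in control liver (SD, n = 4), a log2 fold change of 0.28 ± 0.20. TNPO1 averaged 830.5 ± 173 in treated liver and 695 ± 283 in control liver, and KPNB1 1316 ± 117 in treated liver and 1219 ± 156 in control liver (SD, n = 5 and 4).

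On the lower side in liver stood IPO4, IPO13, NUP62 and KPNA6. IPO4, an importer of histones, had 96.7, 175, 484, 183 and 40.1 in treated livers and 417, 193, 129 and 300.5 in control livers, so the treated livers held both the highest and the lowest value. Its log2 fold change was -0.71 ± 0.59. IPO13, which carries cargo both into and out of the nucleus, had 100.2, 186, 318, 217 and 120.3 in treated livers and 369.9, 259.6, 119 and 315 in control livers, with a log2 fold change of -0.50 ± 0.40. NUP62 averaged 98.0 ± 47.7 in treated liver and 132 ± 53.8 in control liver, and KPNA6 363 ± 128 in treated liver and 456 ± 141 in control liver (SD, n = 5 and 4). NUP62CL, a relative of NUP62, had 27.1, 33.7, 18.5, 5.35 and 66.1 in treated livers and 10.3, 3.87, 14.1 and 42.3 in control livers, a log2 fold change of 0.81 ± 0.72, and it had the widest spread of the members, a residual SD of 1.27. The adjusted p was 0.999 for all 45 members in liver.

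What varied in liver were the animals, across both groups. NUP188, an inner ring scaffold gene, had 160.4, 153, 422, 213 and 97.5 in treated sheep 48, 63, 185, 233 and 255, and 374, 191, 82.1 and 243 in control sheep 98, 131, 179 and 201. IPO9, an importer of histones, had 189.9, 279, 491, 269.7 and 113 in treated livers and 473, 273, 144 and 428 in control livers. In both genes treated sheep 185 and control sheep 98 were the 2 highest, and treated sheep 255 and control sheep 179 the 2 lowest. NUP54 had 1134, 532, 461, 611 and 1023 in treated livers and 327, 402, 1497 and 397 in control livers. XPO1 had 1790.1, 1417, 1000.4, 1215 and 2031 in treated livers and 1039, 1287, 1738 and 932 in control livers. Here the order was the other way: treated sheep 48 and 255 and control sheep 179 were the 3 highest in both genes. KPNA4, with 1588, 1338, 966, 1551 and 1478 in treated livers and 994, 1235, 2246 and 868 in control livers, was also highest in control sheep 179 and low in treated sheep 185 and control sheep 98 and 201.

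Control sheep 179 was the highest of the 9 livers in 14 of 45 members (31.1%), where it was highest in 19.2% of all genes, and control sheep 201 was the lowest in 15 members (33.3%, against 15.3% of all genes). Some members varied little between the livers. TNPO3 had 383, 363, 361, 352 and 342 in treated livers and 337, 379, 338 and 391 in control livers, with the smallest residual SD of the 45 members, 0.085, and KPNB1, NUP88 and NUP160 had 0.153, 0.177 and 0.188, beside the members' median of 0.45. The 4 hepatocyte markers summed to 159244 to 1.29e+06 in treated livers and 350914 to 882243 in control livers, and the 3 cholangiocyte markers to 58.5 to 303 in treated livers and 100.3 to 182.5 in control livers. The 4 adipocyte markers summed to 19.3 to 114 in treated livers and 87.2 to 171 in control livers. The 2 of them tested were both lower at an unadjusted p under 0.05 (limma, smallest adjusted p = 0.999). The 4 T cell markers summed to 126 to 327 in treated livers and 119 to 219 in control livers, with 1 of 4 higher at that p. The 3 macrophage markers summed to 789 to 1993 in treated livers and 705 to 2275 in control livers. The part of these cells in the spread between animals was not tested.

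**Figure D3:**
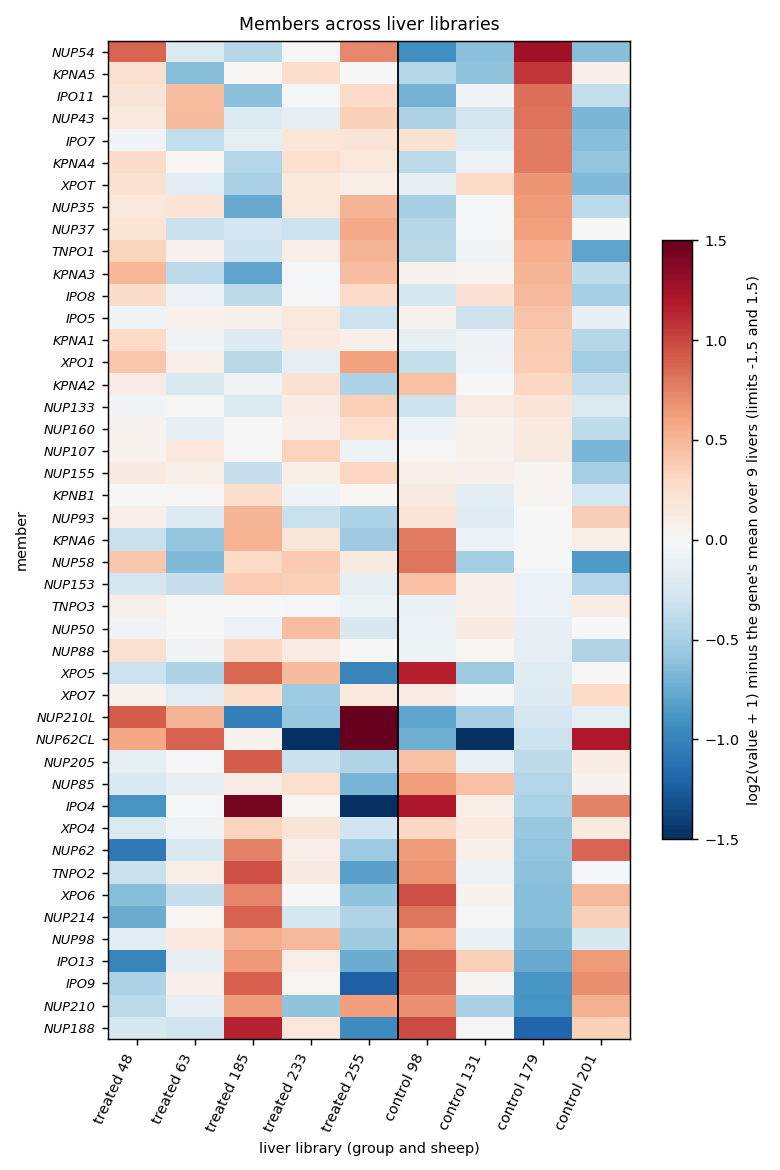
Deviation of each member from its own mean over the 9 livers, on log2(value + 1), for treated (left of the line) and control (right of it) sheep; rows are ordered by the value in control sheep 179 and colours end at -1.5 and 1.5. Genes at the top, such as NUP54, are high in control sheep 179 and low in control sheep 98, and genes at the bottom, such as NUP188, are high in treated sheep 185 and control sheep 98; the pattern crosses the treatment groups.

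The lists of other pore proteins, Ran cycle genes, mRNA export factors and lamina genes held no gene at an unadjusted p under 0.05 in liver. Only 3.99% of all genes stood at that p, so few were to be found in lists of this size. SYNE3, a nesprin of the outer nuclear membrane, came nearest, with 65.3 to 138 in treated livers and 89.6 to 215 in control livers (log2 fold change -0.66). ZC3H11A, an mRNA export factor, averaged 2249 in treated liver and 1797 in control liver, with overlapping ranges.

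Whether treatment acted differently on the members in muscle and in liver was tested as the muscle effect minus the liver effect. After adjustment 0 of 44 members were called by limma, beside 0.00855% of all genes, and edgeR and DESeq2 called 0 as well. NUP58 was the 1 member at an unadjusted p under 0.05 (2.27%, beside 4.90% of all genes in either direction and 2.34% with a negative difference), with a difference in log2 fold change of -0.94 ± 0.38 (adjusted p = 0.897). Its effect was -0.68 in muscle and 0.26 in liver, where it had 94.3, 44.6, 87.6, 93.1 and 78.0 in treated livers and 125, 49.4, 70.5 and 39.0 in control livers. XPO6 followed with 0.73 ± 0.38 (adjusted p = 0.973), from 0.34 in muscle and -0.39 in liver, and KPNA4 with -0.59 ± 0.30, from -0.46 in muscle and 0.13 in liver. Of the 44 differences, 31 were below 0 (70.5%, beside 51.4% of all genes), with a median of -0.18 for the members and -0.016 for all genes. This tilt depended on 1 animal. Without sheep 201, 23 of the 44 were below 0, with a median of -0.034, beside -0.0068 for all genes. With any other sheep left out, 28 to 33 were below 0. For KPNB1 the difference was -0.41 ± 0.22. The number of members at an unadjusted p under 0.05 ran from 0, without sheep 131, 201 or 233, to 6 without sheep 179. Those 6 were 13.6% of the members, beside 12.5% of all genes in that fit and 4.90% of all genes in the reported fit. The count thus depended on single animals, as did the share of all genes.

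Far more members differed between the tissues than between the treatment groups. On 1 joint scale over both tissues, 32 of 44 members differed between muscle and liver at an adjusted limma p under 0.05 (72.7%), close to the 74.8% of all genes, but the split was uneven. Of the members, 25 were higher in muscle (56.8%, beside 38.9% of all genes) and 7 were lower (15.9%, beside 35.9%). The median log2 difference was 0.44 for the members and 0.055 for all genes. CPM scaling, by the total reads of each library, moved the median of all genes to 0.33 and that of the members to 0.71, and gave 30 higher and 7 lower members, beside 46.4% and 28.9% of all genes. Every library of one tissue lay above every library of the other for 16 members higher in muscle (36.4%, beside 20.8% of all genes) and for 5 lower in muscle (11.4%, beside 19%).

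The counts by role in this paragraph stand beside 38.9% of all genes higher in muscle and 35.9% lower. Of the 11 import receptors, 6 were higher in muscle and none lower, and IPO11, IPO8, TNPO2, IPO4 and TNPO1 did not pass, with log2 differences of -0.05 ± 0.18, 0.04 ± 0.13, 0.01 ± 0.19, 0.32 ± 0.31 and 0.32 ± 0.15. IPO13 averaged 3543 ± 655 in muscle (SD, n = 10) and 239.5 ± 107 in liver (SD, n = 9), 14.8-fold higher, a log2 difference of 3.97 ± 0.21 (limma, adjusted p = 2.16e-13). Its muscle libraries ran from 2497 to 4779 and its liver libraries from 108 to 398. KPNA3 averaged 1934 ± 307 in muscle and 217 ± 65.2 in liver, and was 8.91-fold higher in muscle. KPNA6 and KPNA1 were 4.89-fold and 4.56-fold higher. TNPO3 averaged 1617 ± 254 in muscle and 387 ± 24.7 in liver (SD, n = 10 and 9), and IPO5, IPO9 and IPO7 had ratios of muscle over liver of 4.00, 3.69 and 3.27. KPNB1, the shared partner of the adaptors, was 1.84-fold higher in muscle, with 2513 ± 442 in muscle and 1365 ± 133 in liver (SD, n = 10 and 9). Of the 6 adaptors, 4 were higher in muscle and 2, KPNA5 and KPNA2, were lower: KPNA5 averaged 29.9 ± 9.61 in muscle and 102 ± 42.1 in liver, and KPNA2 146 ± 35.0 in muscle and 227 ± 47.4 in liver (SD, n = 10 and 9).

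**Figure D4:**
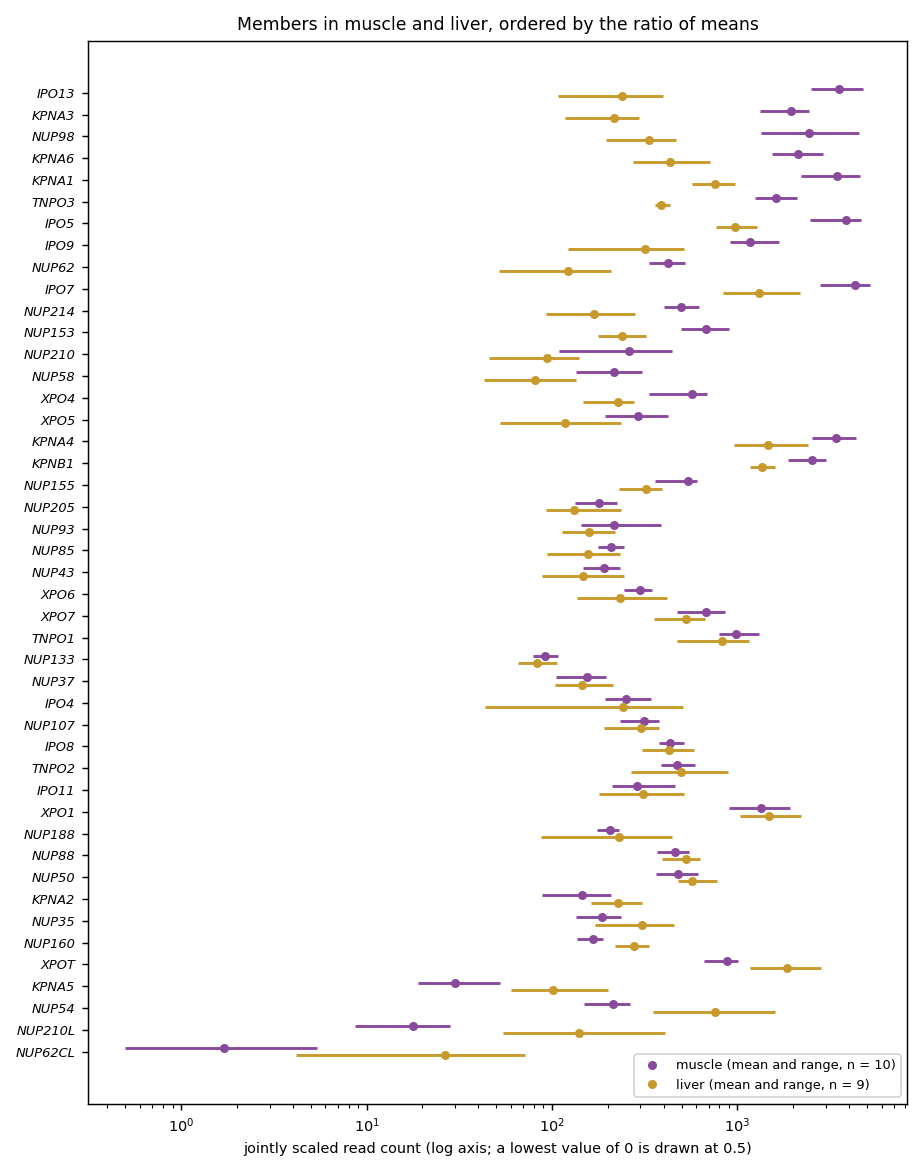
Jointly scaled read counts of the 45 members in muscle (purple, 10 libraries) and liver (gold, 9 libraries) on a log axis; points are means and lines run from the lowest to the highest library, with members ordered by the ratio of means. IPO13 and KPNA3 at the top are 14.8-fold and 8.91-fold higher in muscle, and NUP54 and NUP210L near the bottom are lower in muscle with no overlap.

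The pore proteins divided within single subcomplexes. In the central channel NUP98 averaged 2427 ± 869.9 in muscle and 332 ± 102 in liver, 7.30-fold higher, NUP62 was 3.49-fold and NUP58 2.65-fold higher, all with ranges apart. Their partner NUP54 was lower in muscle, with 214 ± 33.2 in muscle and 761 ± 438 in liver (SD, n = 10 and 9), a ratio of 0.281 and a log2 difference of -1.63 ± 0.23 (limma, adjusted p = 1.74e-06), again with ranges apart. The cytoplasmic filament gene NUP214 and the basket gene NUP153 were 2.95-fold and 2.83-fold higher in muscle, while their neighbours NUP88 and NUP50 did not pass the test, with log2 differences of -0.17 ± 0.11 and -0.25 ± 0.12. In the outer ring NUP160 was lower in muscle, with 166 ± 15.6 in muscle and 278 ± 33.4 in liver, whereas NUP85 and NUP43 were higher and NUP107, NUP133 and NUP37 did not pass.

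The membrane pair also parted. NUP210 averaged 261 ± 124 in muscle and 93.6 ± 39.3 in liver, and NUP210L 17.8 ± 5.46 in muscle and 140.0 ± 113 in liver (SD, n = 10 and 9), a log2 difference of 1.44 ± 0.28 for NUP210 and of -2.62 ± 0.30 for NUP210L. Among the exportins XPO4 and XPO5 were higher in muscle by 1.34 ± 0.15 and 1.40 ± 0.24 on the log2 scale, XPO6 and XPO7 by 0.44 ± 0.19 and 0.34 ± 0.13, and XPOT was lower, with 878 ± 97.3 in muscle and 1858 ± 509 in liver (SD, n = 10 and 9). XPO1 averaged 1335 ± 319 in muscle and 1485 ± 419.7 in liver, a log2 difference of -0.13 ± 0.17 (limma, adjusted p = 0.499) that was 0.15 with CPM. NUP62CL was left out of the tissue test by its low muscle level: its reads summed to 17 in treated muscles and 4 in control muscles, and to 138 in treated livers and 75 in control livers.

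The other genes of the pathway also differed between tissues, in both directions. Over all genes, 38.9% were higher in muscle and 35.9% lower after adjustment by limma. By the same test, 8 of 15 genes of the Ran cycle and other transport factors were higher in muscle and 3 lower, and of 10 other pore proteins 3 were higher and 1 lower. Of 18 mRNA export factors 6 were higher and 4 lower, and of 16 lamina and envelope genes 9 were higher and 4 lower. The median log2 difference of muscle over liver was 0.88 for the Ran cycle genes, 0.15 for the other pore proteins, 0.086 for the mRNA export factors and 0.63 for the lamina and envelope genes, beside 0.055 for all genes.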

How the data were processed

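Liver and muscle RNA of 10 female sheep was sequenced in 19 libraries, made with a TruSeq kit as the labels' protocols say. The submitters' processing notes name Trimmomatic, STAR and featureCounts 1.6.1. Which build, annotation, strand setting and rule for multi-mapped reads were used is not given in the sources used here, so no coordinates are printed, and genes with near-identical copies are uncertain. The deposited signal is a read count that the authors normalized within each tissue. All values (100%) were whole multiples of 1 read within 0.01 read. Median-of-ratios size factors computed on these reads matched the deposited ones to a relative difference of 1.9e-10. No column went unused (0).

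In each tissue, genes averaging at least 10 were tested on log2(value + 1), a scale that understates changes of low genes. The test was limma 3.58.1 (R 4.3.3) with its trend option, and Benjamini-Hochberg adjustment ran over all genes at 0.05. The difference of effects and the tissue comparison used all 19 libraries and genes past the filter in both tissues. For the tissue comparison the recovered reads were rescaled jointly by the median of ratios. As alternatives, edgeR 4.0.16 and DESeq2 1.42.0 were run on the reads, and after adjustment called 1 and 259 genes in muscle. Scripts were tested on simulated data. Replicates were separate animals. The sheep number pairs the tissues of 1 animal: deviations from group means correlated positively in 9 of 9 sheep, at a median of 0.177, against -0.017 between sheep. The named genes were the 8 members of smallest p in each treatment test and in their difference, the 5 highest and 5 lowest members between tissues, 10 set members, and 2 genes per pathway list in each tissue; other members were named after their values were seen. The members and lists were chosen with earlier results of these data known.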

Additional observations from a re-analysis of the deposited data

Results flagged for a closer look

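In 4 of the 106 sets of a member and a group checked, covering 27 members, 1 library lay far from the rest of its group, where chance gives about 1 in 20. In liver, KPNA6 was 665 in control sheep 98, with the other controls at 363 to 409.6, and NUP54 was 1497 in control sheep 179, with the other controls at 327 to 402. KPNB1 was 1518 in the liver of treated sheep 185, with the other treated livers at 1213 to 1295. NUP88 was 393 in the muscle of treated sheep 185, with the other treated muscles at 549 to 591.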

How the results depend on the processing

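The members at an unadjusted p under 0.05 in muscle were 9 in the reported fit (20.5%, beside 14.4% of all genes). With 1 fit of all libraries they numbered 5 (11.4%, beside 6.67%). With TMM they were 15.9% of the members, beside 13.9% of all genes. With 1 library left out they numbered 6 to 14. The 6, without control sheep 201, were 13.6% of the members, beside 12.5% of all genes. The 14, without treated sheep 255, were 31.8%, beside 17.2%. The median log2 fold change of the members ran from -0.17 to -0.10 over all fits with 1 library left out. In liver, 0 members stood at that p in the reported fit, beside 3.99% of all genes. There was 1 by DESeq2 (2.22%, beside 5.04%), and there were 4 with array weights (8.89%, beside 11.1%). With 1 library left out there were 0 to 3 (0% to 6.67%), beside 2.92% to 8.47% of all genes. The median of the members ran from -0.0079 to 0.11 in those fits. For the difference between tissues in the treatment effect there was 1 in the reported fit (2.27%, beside 4.90% of all genes). There were 2 with TMM (4.55%, beside 4.76%) and 2 with edgeR (4.55%, beside 5.22%). With 1 sheep left out there were 0 to 6 (0% to 13.6%), beside 3.29% to 12.5% of all genes. The tissue count of 32 (72.7%, beside 74.8% of all genes) ran from 27 to 32 with 1 sheep left out. The 27 of 44 members, without sheep 131, stood beside 8453 of all 11721 genes in that fit. With sheep as a replicate block the tissue count was 32 and the difference count 1. Over all genes, the calls after adjustment went from 8752 to 8755 between tissues and from 1 to 0 for the difference. NUP153 in liver, -0.003 in the reported fit, ran from -0.151 to 0.148 with 1 library left out and was above 0 in 5 of those fits, and XPO1 between tissues was 0.15 with CPM; the cause was not tested. With 4 or 5 animals a group, liver SEs near the size of the effects limit what can be seen.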
